A study of Ovis aries with 15 samples.

Results

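Described here are 8 genes that bring glucose into the mammary gland and turn it into lactose, namely SLC2A1, HK1, HK2, GPI, PGM1, UGP2, SLC35A2 and B4GALT1. They were chosen by gene symbol among the 24691 features of the deposited table, and 7 of the 8 symbols were found. SLC2A1 was not found by its symbol. The feature named GLUT-1, the common name of the SLC2A1 protein, was taken for it, because ERMAP and ZNF691 lie before it and EBNA1BP2 after it, as around SLC2A1 in the RefSeq table of the assembly ARS-UI_Ramb_v3.0. It is written SLC2A1 (GLUT-1) below and was added outside the rule on symbols.

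Lactose is the main sugar of milk and, through osmosis, sets much of its volume. The secretory epithelial cells of the gland take glucose from the blood through carriers such as GLUT-1. Hexokinases phosphorylate part of it to glucose 6-phosphate, a phosphoglucomutase turns that into glucose 1-phosphate, UGP2 joins this to UDP, and the UDP-glucose is then turned into UDP-galactose. SLC35A2 carries UDP-galactose into the Golgi, where the galactosyltransferase B4GALT1, together with α-lactalbumin (LALBA), links galactose to free glucose. GPI leads glucose 6-phosphate the other way, into glycolysis.

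Mammary tissue was taken by needle from Romney ewes, and RNA pooled from several animals was sequenced as 15 libraries, 9 from late pregnancy (day 135 of gestation, SD 2.4) and 6 from lactation (day 15 post partum, SD 1.27). Per pool, the labels name 3 animals for late pregnancy but 2 for lactation, where the study's methods name 3 throughout. The ewes were the daughters of dams fed ad libitum (HM), at maintenance (MM) or below maintenance (LM) in early gestation, all at maintenance afterwards, and each dam group had 3 pools in late pregnancy and 2 in lactation. All the ewes were kept on the same farm conditions with the same feed, and the labels describe biopsies in late pregnancy and again in lactation. Which ewes stand in which pool is not given, so the states may share animals, and p-values measure the spread between pools.

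Reads on genes numbered 7597938 to 19823166 per late pregnancy library and 10352962 to 25679416 per lactation library, and 7 milk protein genes took 13.7 to 23.4% of the counted reads before birth and 71.3 to 75.8% after it. Levels are therefore given as CPM, the reads on the exons of a gene relative to a library size scaled by TMM, a method that centres the bulk of the genes, and every direction below is relative to that bulk. Without this scaling the median log2 change of the 13345 genes tested was -1.94, against -0.03 with it, and 97.3% of the calls were lower. With it, 33.1% of these genes were called higher in lactation and 35.2% lower, the shares beside which the marker counts below stand. Among markers of cell types, the luminal epithelial list was present in both states (5 of 10 tested markers higher and 3 lower in lactation, summed level 1788 to 2223 CPM in late pregnancy, then 2697 to 3020 CPM). All 5 T cell markers tested were lower in lactation (summed level 36.6 to 59.5 CPM in late pregnancy and 12.1 to 18.9 CPM in lactation), as were 7 of 8 fibroblast markers (1331 to 2117 and 635 to 1019 CPM), 4 of 5 endothelial markers (189 to 258 and 134 to 189 CPM) and 3 of 5 macrophage markers (105 to 138 and 55.4 to 78.5 CPM). With library size alone, 9 of the 10 luminal markers were lower as well. Of the 3 adipocyte markers tested none was called (23.7 to 37.8 and 16.9 to 35.2 CPM), 3 of the 6 myoepithelial markers were higher and 2 lower (554 to 626 and 525 to 778 CPM), and the red blood cell and skeletal muscle lists stayed at or below 2.34 CPM in each library. Their part in the results was not tested, and in such bulk samples fewer cells of a type and less RNA per cell cannot be told apart.

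**Figure D1:**
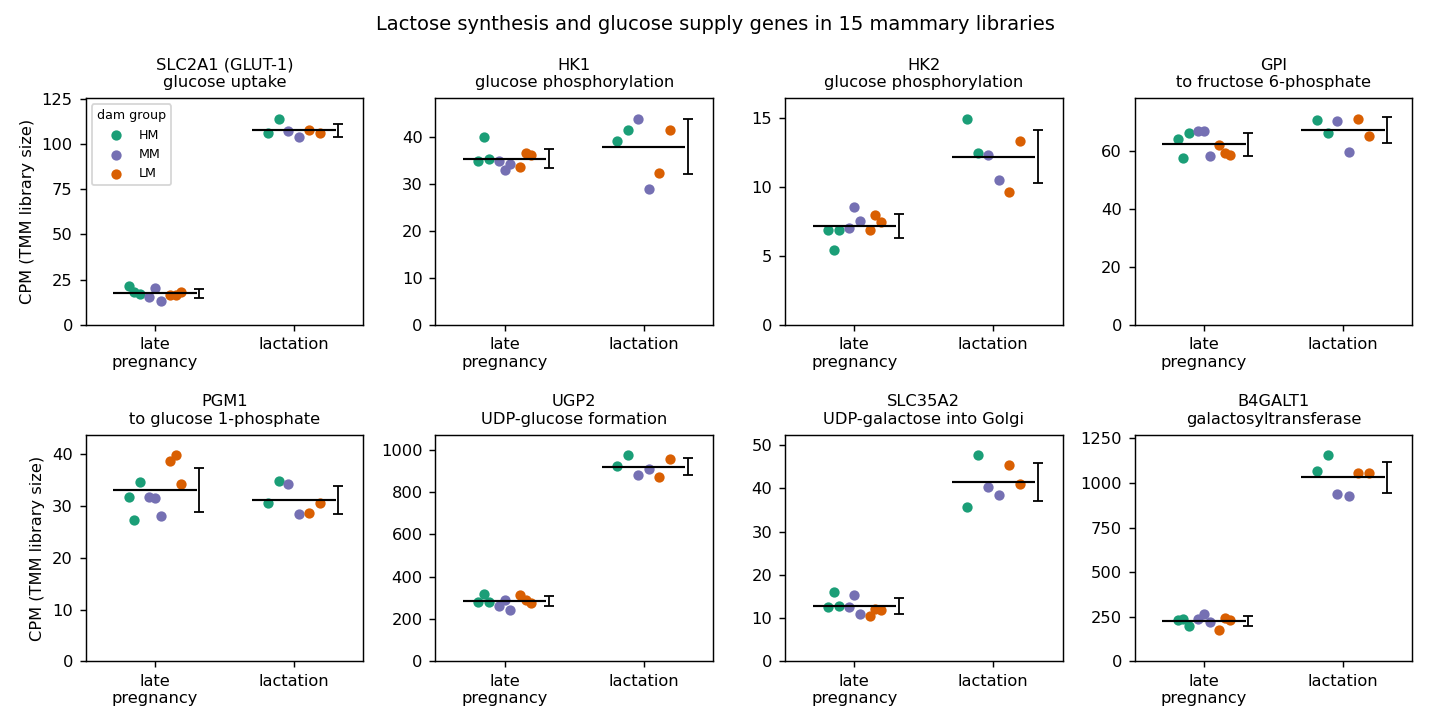
CPM (TMM library size, axes from 0) of each of the 8 genes in the 15 libraries, with a point for each library coloured by dam group, the line the mean and the bar the SD of 9 late pregnancy and 6 lactation libraries. The states do not overlap for SLC2A1 (GLUT-1), HK2, UGP2, SLC35A2 and B4GALT1, all higher in lactation, but with library size alone UGP2, SLC35A2 and HK2 were lower, and the states overlap for HK1, GPI and PGM1.

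Of the 8 genes, 5 were higher in lactation and none was lower, by edgeR's quasi-likelihood test with Benjamini-Hochberg adjustment over all 13345 genes. The 5 were SLC2A1 (GLUT-1) of glucose uptake, UGP2 of UDP-glucose formation, SLC35A2 of Golgi import and B4GALT1 of galactose transfer, with a smaller rise of HK2 of glucose phosphorylation. The 3 that were not called were HK1, which catalyses the same step as HK2, GPI and PGM1. The states were compared to ask which steps of lactose formation are carried by more mRNA once milk secretion is under way. Over all tested genes 33.1% were called higher and 35.2% lower, 68.4% in either direction, and 40.2% did not overlap between the states, as 5 of these 8 did not. The median log2 change of the 8 was 1.22, against -0.03 for all tested genes (-0.68 against -1.94 with library size alone, where 2 of the 8 were higher and 6 lower). Leaving out MM pool 2 of lactation raised the number to 7, since HK1 (log2 change 0.17, adjusted p = 0.0344) and GPI (0.14, adjusted p = 0.0268) then passed.

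The uptake step came first in size. SLC2A1 (GLUT-1; chromosome 1, 17150329 to 17176600, 12 exons, positions as in the deposited table, for which the labels name the sheep build Oar_v3.1) encodes the facilitative carrier that lets glucose into the cell along its gradient. Its level was 13.0, 17.1 and 21.5 CPM (lowest, median and highest library) in late pregnancy and 104, 107 and 114 CPM in lactation. The lowest lactation library thus stood well above the highest late pregnancy library, and the lactation libraries lay within a narrow band (SD 3.50 CPM, n = 6). The log2 change was 2.63 (SE 0.079, 95% interval 2.46 to 2.80, adjusted p = 6.58e-16 by edgeR), a 6.19-fold higher level. It kept its direction with library size alone (log2 change 0.73, adjusted p = 1.30e-08).

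The hexokinases trap glucose in the cell by phosphorylating it, HK1 being the form found in most tissues and HK2 the form typical of insulin-sensitive ones. HK1 (chromosome 25, 25502342 to 25556930, 18 exons) had 33.1, 35.0 and 40.0 CPM in late pregnancy and 29.1, 40.4 and 44.0 CPM in lactation. The lactation libraries reached both below and above the late pregnancy range. Its log2 change of 0.10 did not pass the test (95% interval -0.07 to 0.26, adjusted p = 0.277 by edgeR). HK2 (chromosome 3, 96602310 to 96668548, 19 exons) had 5.39, 7.02 and 8.52 CPM in late pregnancy and 9.63, 12.4 and 14.9 CPM in lactation. The states did not overlap, although the gap between them was small beside the spread in lactation (SD 1.92 CPM, n = 6). HK2 was 1.67-fold higher in lactation (log2 change 0.74, SE 0.104, adjusted p = 3.02e-06 by edgeR), with 59 to 236 exon reads a library, but lower with library size alone (-1.16, adjusted p = 2.17e-08).

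GPI and PGM1 stand where glucose 6-phosphate is shared between glycolysis and sugar nucleotides. GPI (chromosome 14, 44074184 to 44101512, 18 exons), which makes fructose 6-phosphate, had 57.6, 61.8 and 66.8 CPM in late pregnancy and 59.5, 68.0 and 71.1 CPM in lactation. Its log2 change of 0.11 missed the threshold (95% interval -0.01 to 0.22, adjusted p = 0.0830 by edgeR). PGM1 (chromosome 1, 38621020 to 38688243, 13 exons), which makes glucose 1-phosphate, had 27.4, 31.8 and 39.8 CPM in late pregnancy and 28.5, 30.6 and 34.8 CPM in lactation. The lactation libraries of PGM1 lay inside the late pregnancy range, and the log2 change was -0.09 (95% interval -0.27 to 0.09, adjusted p = 0.351 by edgeR). The intervals of HK1, GPI and PGM1 reach no further than 0.27 on the log2 scale either way. Their calls depend on the scaling and on the reads counted: with reads on the whole gene GPI was called higher (0.14, adjusted p = 0.0197 by edgeR), with upper quartile scaling PGM1 was called lower (-0.24, adjusted p = 0.0167), with quantile-normalized RPKM plus 1 in limma GPI was called lower (-0.12, adjusted p = 0.0419), and with library size alone all 3 were called lower.

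UGP2 (chromosome 3, 44241668 to 44296199, 10 exons), which forms UDP-glucose, had 242, 282 and 318 CPM in late pregnancy and 871, 917 and 974 CPM in lactation. SLC35A2 (chromosome X, 52898287 to 52905388, 5 exons), the carrier of UDP-galactose into the Golgi, had 10.6, 12.6 and 16.1 CPM in late pregnancy and 35.6, 40.7 and 47.6 CPM in lactation. B4GALT1 (chromosome 2, 37778591 to 37829022, 6 exons), the catalytic part of lactose synthase, had 178, 233 and 266 CPM in late pregnancy and 925, 1056 and 1156 CPM in lactation. None of the 3 genes overlapped between the states. UGP2 was 3.24-fold higher (log2 change 1.70, SE 0.059, adjusted p = 3.37e-15), SLC35A2 3.27-fold (1.71, SE 0.088, adjusted p = 1.26e-12) and B4GALT1 4.55-fold (2.19, SE 0.076, adjusted p = 3.67e-15), all by edgeR. With library size alone B4GALT1 was still higher (0.28, adjusted p = 0.00718), but UGP2 (-0.21, adjusted p = 0.00649) and SLC35A2 (-0.20, adjusted p = 0.0445) were lower, each still above the median gene of -1.94 by 1.73. LALBA, the partner of B4GALT1 and one of the milk protein genes, rose from 1379, 2222 and 3503 CPM to 72465, 98908 and 113883 CPM (log2 change 5.42, SE 0.207, adjusted p = 1.37e-14 by edgeR). Per exon length, the level of LALBA was 11.9 to 31.5 times that of B4GALT1 in late pregnancy and 142 to 254 times in lactation.

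**Figure D2:**
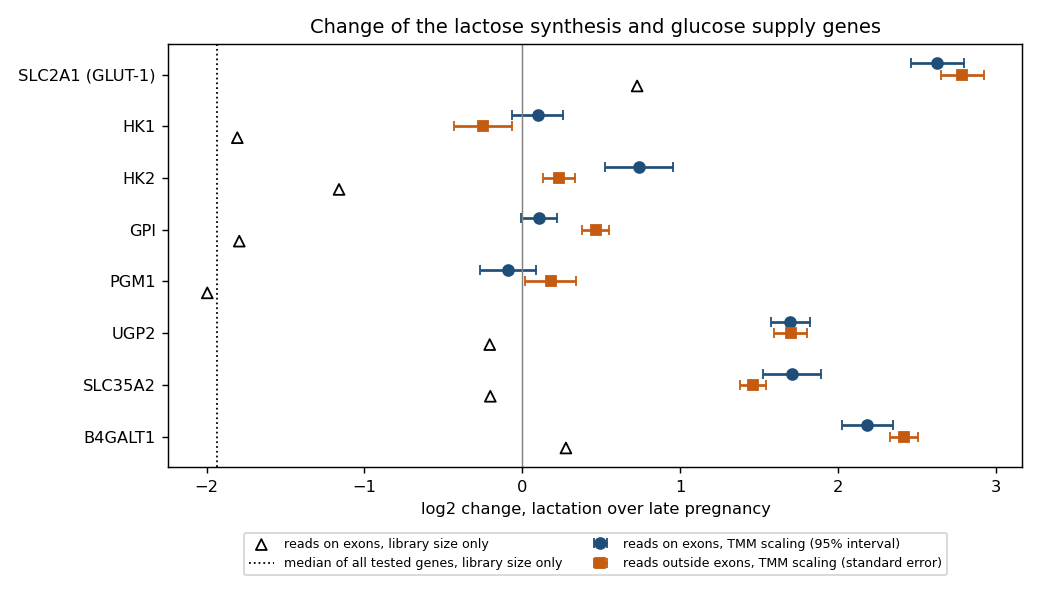
Log2 change from late pregnancy to lactation for reads on exons with TMM scaling (circles, bars 95% intervals), reads outside exons with TMM scaling (squares, bars standard errors) and reads on exons with library size alone (triangles); the dotted line is the median of all tested genes with library size alone. With TMM the circles of SLC2A1 (GLUT-1), B4GALT1, SLC35A2, UGP2 and HK2 lie above 0 with their intervals, while with library size alone UGP2, SLC35A2 and HK2 lie below 0 and SLC2A1 (GLUT-1) and B4GALT1 above.

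The lane written in the column names of the table gives the nearest thing to a batch, although per the labels the reads of a library came from 2 lanes and were joined, and lane 8 holds all the LM libraries. Fitted within the libraries of lane 7 and of lane 8, the log2 change of SLC2A1 (GLUT-1) was 2.54 and 2.70, that of B4GALT1 2.12 and 2.24, that of UGP2 1.69 and 1.71, that of SLC35A2 1.55 and 1.84, and that of HK2 0.89 and 0.59, all called in both lanes. HK1 was called in lane 7 (0.23, adjusted p = 0.0464 by edgeR) and not in lane 8 (-0.05, adjusted p = 0.687). PGM1 was called in neither (0.11 and -0.27), nor was GPI (0.11 and 0.10).

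To compare the genes with each other, reads were also divided by exon length (TMM-scaled RPKM). In late pregnancy B4GALT1 (150 ± 17.1, SD, n = 9) and UGP2 (128 ± 10.7) came first and differed in the same direction in 8 of 9 libraries, though their ranges overlapped. GPI followed at 30.8 ± 1.92, and SLC35A2 (10.8 ± 1.57), PGM1 (10.8 ± 1.38) and HK1 (10.1 ± 0.580) could not be set in an order beyond their spread. SLC2A1 (GLUT-1) stood at 6.30 ± 0.928 and HK2 last at 2.12 ± 0.259. In lactation the levels were 685 ± 57.5 (SD, n = 6) for B4GALT1, 416 ± 18.3 for UGP2, 39.0 ± 1.27 for SLC2A1 (GLUT-1), 35.0 ± 3.74 for SLC35A2, 33.2 ± 2.21 for GPI, 10.9 ± 1.69 for HK1, 10.1 ± 0.879 for PGM1 and 3.61 ± 0.569 for HK2. SLC2A1 (GLUT-1) had moved from the seventh to the third place, above SLC35A2 in all 6 libraries but with overlapping ranges. SLC35A2 and GPI, and likewise HK1 and PGM1, were in the same order in only 4 of 6 libraries.

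A rank within a library does not depend on how libraries are scaled. Among the 13345 tested genes of its own library, SLC2A1 (GLUT-1) stood at percentile 46.8, 54.97 and 61.2 (lowest, median, highest) in late pregnancy and 90.4, 90.7 and 91.5 in lactation. SLC35A2 went from 64.7, 69.3 and 75.6 to 88.0, 89.4 and 91.2, and HK2 from 23.6, 28.7 and 32.3 to 36.2, 41.1 and 45.7. UGP2 (97.7 to 98.1, then 98.9 to 99.1) and B4GALT1 (97.7 to 98.4, then 99.3 to 99.5) were already among the most abundant mRNAs before birth and had little room to climb. All 5 ranks were higher in lactation (adjusted p = 0.00101 each by an exact two-sided permutation test of the libraries, adjusted over all tested genes). Over all genes 67.7% of ranks were called, 32.7% higher and 35.0% lower. GPI went the other way, from 89.1, 89.9 and 90.8 to 87.6, 89.1 and 89.7 (adjusted p = 0.0264 by the same exact permutation test), although its CPM was not called and leaned upward. That call was lost when pool 2 of HM, LM or MM of lactation was left out (adjusted p = 0.0501 to 0.0622 by the exact permutation test). The ranks of HK1 (difference -0.25 percentile points, adjusted p = 0.880) and PGM1 (-3.02, adjusted p = 0.103) did not pass the exact permutation test, though that of PGM1 did without late pregnancy HM pool 2 (adjusted p = 0.0387) and, with all libraries, when exon reads were ranked without division by length (-3.64, adjusted p = 0.0256).

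**Figure D3:**
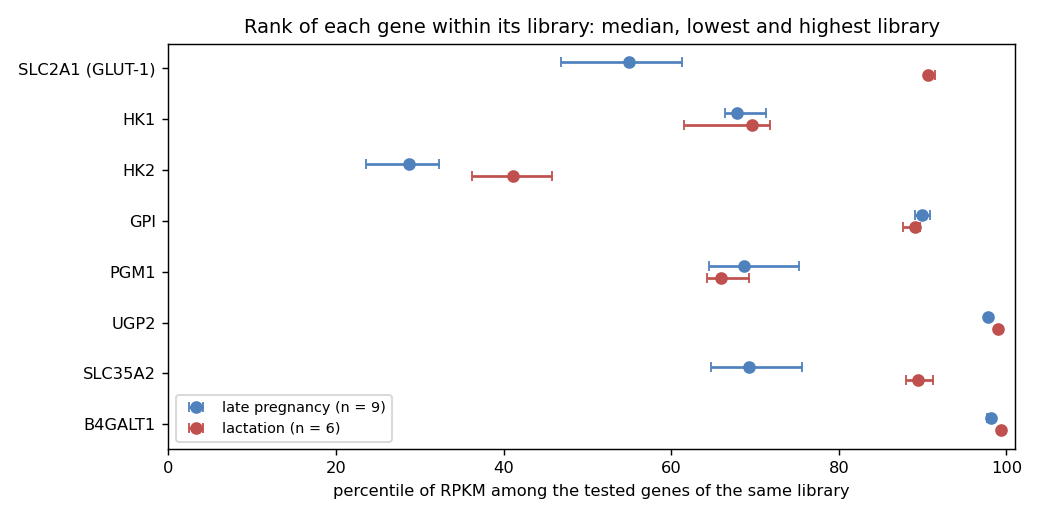
Percentile of each gene's RPKM among the 13345 tested genes of its own library, as the median (point) with the lowest and highest library (bar) of 9 late pregnancy and 6 lactation libraries. SLC2A1 (GLUT-1) shows the widest move, from a median of 54.97 to 90.7, and UGP2 and B4GALT1 stay near the upper end in both states.

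The reads of one gene divided by those of another in the same library are free of scaling as well. Of the 28 pairs of the 8 genes, 24 ratios differed between the states by an exact two-sided permutation test (p unadjusted, since the genes were chosen with results known), 23 of them without overlap and at p = 0.0004, the smallest this test can give with 9 and 6 libraries. The pairs reuse the same 8 genes, and no such count was made over all pairs of genes. The count is a description. Of all tested genes 68.4% were called and 40.2% did not overlap between the states in CPM. The largest shift lay between SLC2A1 (GLUT-1) and PGM1. For each read of SLC2A1 there were 1.47, 2.03 and 2.44 reads of PGM1 in late pregnancy (lowest, median, highest library) and 0.265, 0.289 and 0.319 in lactation, a 0.151-fold shift of the mean ratio. Against HK1 there were 0.379, 0.485 and 0.616 reads of SLC2A1 for each of HK1, then 2.43, 2.72 and 3.57, a 5.90-fold shift. It was 5.80-fold against GPI and 3.69-fold against HK2 (1.73 to 3.37 reads of SLC2A1 for each of HK2, then 7.09 to 11.2).

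Within the last steps the ratio of UGP2 to SLC35A2 did not move beyond its spread, while B4GALT1 gained on both. UGP2 and SLC35A2 kept 19.0, 22.3 and 29.8 reads of UGP2 for each of SLC35A2 in late pregnancy and 19.2, 22.6 and 26.0 in lactation (exact permutation p = 0.975). B4GALT1 went from 0.567, 0.836 and 0.918 reads for each of UGP2 to 1.02, 1.13 and 1.21, a shift of 1.40-fold (exact permutation p = 0.0004). The order of their reads, not divided by exon length, thus turned in every library. Against SLC35A2 the shift of B4GALT1 was also 1.40-fold, and against SLC2A1 (GLUT-1) B4GALT1 lost ground (0.730-fold). The pairs among HK1, GPI and PGM1 overlapped, with exact permutation p = 0.795 for HK1 to GPI, 0.129 for PGM1 to HK1 and 0.0575 for PGM1 to GPI. PGM1 to GPI passed without lactation HM pool 2 or without late pregnancy HM pool 2, MM pool 1 or MM pool 2 (p = 0.0270 to 0.0473) and with reads on the whole gene (p = 0.0172), and PGM1 to HK1 passed without late pregnancy HM pool 2 (p = 0.0206), by the same exact permutation test. HK2 gained on HK1 (from 3.89 to 7.42 reads of HK1 for each of HK2 down to 2.63 to 3.59, exact permutation p = 0.0004).

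**Figure D4:**
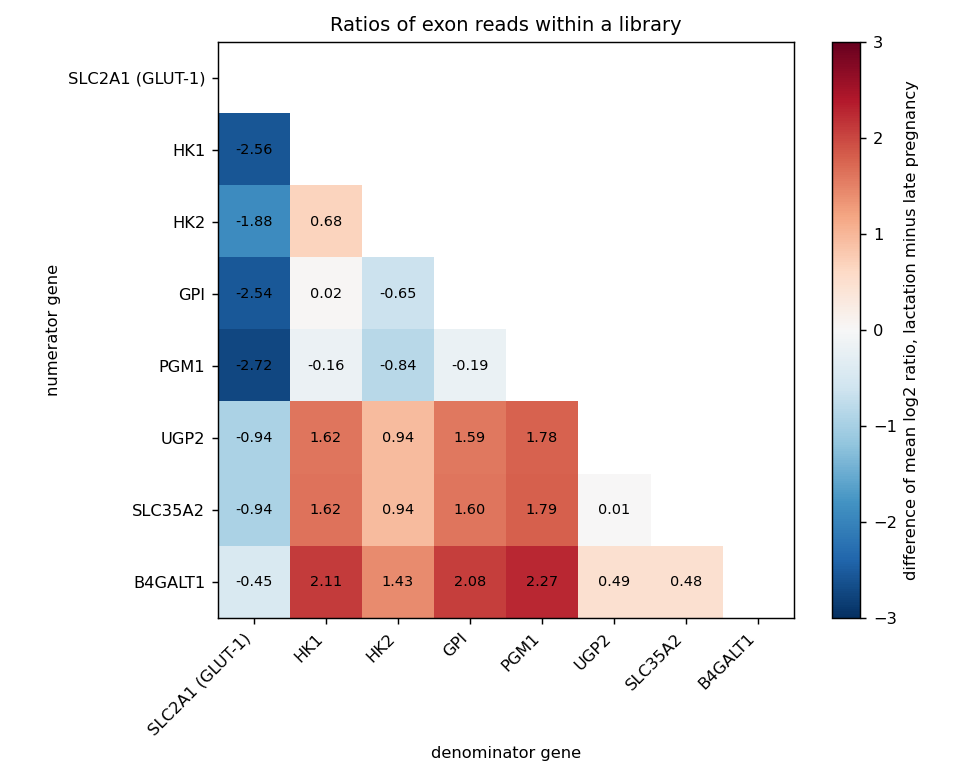
Difference of the mean log2 ratio of exon reads between lactation (6 libraries) and late pregnancy (9 libraries) for the 28 pairs, with the row gene over the column gene, red where the row gene gained in lactation and blue where it lost. The column of SLC2A1 (GLUT-1) is blue throughout, from -0.45 for B4GALT1 to -2.72 for PGM1, and UGP2 against SLC35A2 and GPI against HK1 lie near 0.

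Reads on a gene but outside its annotated exons, which can come from unspliced RNA, from unannotated exons or from overlapping genes, were counted in the same libraries, and their origin was not tested. By edgeR on 10344 genes, of which 58.0% were called, they were higher in lactation for SLC2A1 (GLUT-1; log2 change 2.79, SE 0.136, adjusted p = 1.55e-14), B4GALT1 (2.42, SE 0.089, adjusted p = 8.72e-17), UGP2 (1.70, SE 0.106, adjusted p = 1.44e-12) and SLC35A2 (1.46, SE 0.083, adjusted p = 3.03e-13), which are also the 4 with the largest changes on exons. GPI was called as well on these reads (0.47, SE 0.087, adjusted p = 7.14e-05), unlike on exons, which made 5 of the 8. PGM1 (0.18, adjusted p = 0.351), HK1 (-0.25, adjusted p = 0.254) and HK2 (0.23, adjusted p = 0.0533) were not called by edgeR, though HK2 passed without lactation HM pool 1, late pregnancy LM pool 2 or late pregnancy MM pool 1 (adjusted p = 0.0222 to 0.0420) and, with all libraries, under the TMM library sizes of the exon reads (0.32, adjusted p = 0.0127). With library size alone the log2 changes of PGM1 (-0.43), HK2 (-0.37) and GPI (-0.15) were below 0 on these reads. Only 26.3% of the HK2 reads outside exons were placed at 1 site of the genome, and on those alone HK2 was called higher (0.82, adjusted p = 0.000903 by edgeR).

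As a share of all reads on the gene, reads outside exons were 8.36, 9.44 and 10.6% for GPI in late pregnancy and 11.3, 11.9 and 14.8% in lactation, with no overlap (adjusted p = 0.00404 by an exact permutation test over all 10293 genes with a share in every library, of which 29.3% were called and 17.0% were called higher). For B4GALT1 the share was 11.9, 12.7 and 15.1%, then 12.3, 16.2 and 17.8% (adjusted p = 0.0396 by the exact permutation test), a call lost without any 1 of 10 libraries (late pregnancy HM pool 2, LM pool 2 and the 3 MM pools, and each lactation library but LM pool 2; adjusted p = 0.0578 to 0.0825). For HK2 it was 39.0, 46.3 and 51.2%, then 29.9, 39.0 and 45.3% (adjusted p = 0.0329 by the exact permutation test), lost without late pregnancy HM pool 2 or without lactation HM pool 1, LM pool 2 or MM pool 1 (adjusted p = 0.0501 to 0.0682). On reads placed at 1 site the difference for HK2 was 2.33 percentage points in the other direction (adjusted p = 0.433 by the exact permutation test). Of the 8 genes, 3 were called, and 1 without late pregnancy HM pool 2 or without lactation MM pool 1. Without lactation HM pool 1 the lower share of SLC35A2 was called too (adjusted p = 0.0246, against 0.111 with all libraries, by the exact permutation test). SLC35A2 stood out by the level of its share, at 53.4 to 62.8% in late pregnancy and 52.0 to 58.0% in lactation, so that more reads lay outside than inside the annotated exons of this short gene of 7102 bases. Counted on the whole gene, SLC35A2 was still higher in lactation (log2 change 1.60, adjusted p = 2.68e-13 by edgeR), and counted only on exon-exon reads it was too (1.67, adjusted p = 2.78e-10).

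The other glucose carriers place SLC2A1 (GLUT-1) among its kind. Of 14 tested, 7 were higher in lactation and 1 lower (median log2 change 0.41), where 33.1% of all tested genes were higher and 35.2% lower. The counts were 2 higher and 11 lower with library size alone, and 5 higher and 3 lower with upper quartile scaling. SLC50A1, which encodes the SWEET1 sugar carrier, had the highest level per length, at 66.1, 72.1 and 84.6 TMM-scaled RPKM in late pregnancy and 213, 217 and 226 in lactation (log2 change of CPM 1.57, adjusted p = 2.36e-15 by edgeR). The sodium-coupled carrier SLC5A1 followed, at 10.6, 11.6 and 13.2, then 52.5, 59.0 and 70.4 TMM-scaled RPKM (2.35, adjusted p = 1.94e-16). Both therefore stood above SLC2A1 (GLUT-1; 4.72 to 7.82, then 37.7 to 41.4) in each state. SLC5A1 was higher with library size alone too, but SLC50A1 was lower (-0.33). As a share of the summed level per length of the carriers of a library, SLC2A1 (GLUT-1) took 4.91, 6.04 and 6.99% before birth and 11.04, 11.6 and 11.9% in lactation, with medians of 4.43 and 7.98% on exon-exon reads.

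**Figure D5:**
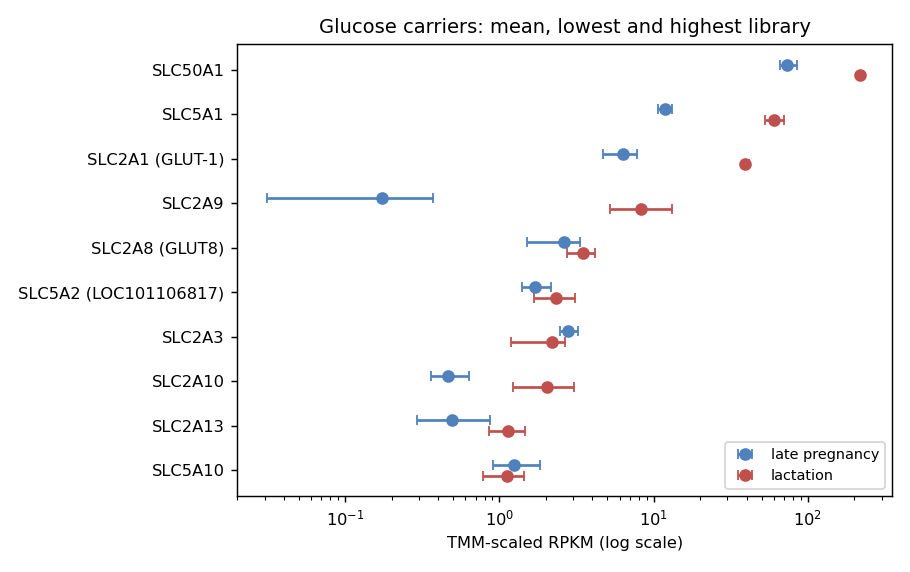
TMM-scaled RPKM (log axis) of the glucose carriers with a mean of at least 1 in either state, as the mean (point) with the lowest and highest library (bar) of 9 late pregnancy and 6 lactation libraries. SLC50A1, SLC5A1 and SLC2A1 (GLUT-1) lead the carriers in lactation, with mean levels of 218, 60.7 and 39.0.

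The widest change among the carriers was that of SLC2A9, known as a urate and hexose carrier, from 0.031, 0.143 and 0.370 to 5.23, 8.08 and 13.2 TMM-scaled RPKM (log2 change 5.61, SE 0.288, adjusted p = 1.12e-12 by edgeR), which rests on 1 to 120 exon reads a library. SLC2A10 (2.09, adjusted p = 3.74e-08) and SLC2A13 (1.28, adjusted p = 0.000137), a carrier of myo-inositol, were higher at means of at most 2.02 TMM-scaled RPKM. SLC2A8 (feature GLUT8; 0.37, adjusted p = 0.0362) and SLC5A2 (feature LOC101106817; 0.44, adjusted p = 0.0119) were higher, but neither call held with upper quartile scaling (adjusted p = 0.201 and 0.0784) or in lane 7 (adjusted p = 0.119 and 0.990). That of SLC5A2 was also lost on whole-gene reads (adjusted p = 0.0798), and that of SLC2A8 in lane 8, with no filter, with at least 10 reads in every library and on exon-exon reads (adjusted p = 0.0900 to 0.275). SLC2A3, the carrier known from neurons, was the one called lower (-0.34, adjusted p = 0.0156), and SLC5A10 was not called (-0.12, adjusted p = 0.716), all by edgeR. The call of SLC2A3 was lost within lane 7 (adjusted p = 0.0647) and lane 8 (adjusted p = 0.112), on exon-exon reads (adjusted p = 0.0571) and in both limma fits (adjusted p = 0.0572 and 0.0636). The call of SLC2A8 was also lost without late pregnancy HM pool 3 or without either HM or either LM pool of lactation (adjusted p = 0.0502 to 0.103 by edgeR). With library size alone SLC2A8, SLC2A13 and SLC5A2 were lower and SLC2A10 was not called (0.18, adjusted p = 0.422). SLC2A2, the carrier of liver and pancreatic islets, had no read in any library.

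Other enzymes phosphorylate glucose beside HK1 and HK2. ADPGK, which uses ADP to phosphorylate glucose, was higher in lactation (15.3, 17.4 and 21.0, then 34.2, 35.4 and 40.1 TMM-scaled RPKM, log2 change 1.03, adjusted p = 1.24e-11 by edgeR). HK3, known from blood cells, was lower (-0.78, adjusted p = 3.07e-05), and so was HKDC1 (-1.67, adjusted p = 0.000940 by edgeR) at means of 0.270 and 0.096 TMM-scaled RPKM. With library size alone ADPGK was lower as well (-0.88). Of the marker lists, 3 of 5 macrophage markers and all 5 T cell markers tested were lower too, where 35.2% of all tested genes were lower. The part of these cells in the result for HK3 was not tested.

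B4GALT1 has 6 relatives, the other galactosyltransferases of its family. B4GALT7, of proteoglycan synthesis, was higher (log2 change 0.45, adjusted p = 8.63e-05), 3 were lower, and 2 were not called by edgeR (median -0.27 over the 6). Over all tested genes 33.1% were called higher and 35.2% lower. With library size alone all 6 were lower, as were 97.3% of the calls over all tested genes. B4GALT4 fell most, by 1.06 on the log2 scale (adjusted p = 1.05e-05 by edgeR), from 2.02 to 0.962 TMM-scaled RPKM. B4GALT1 took 76.2, 82.0 and 83.3% of the summed level per length of the 7 genes in late pregnancy and 95.3, 95.5 and 96.4% in lactation.

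Of the 13 other enzymes of galactose and UDP-sugar handling, 8 were higher and 3 lower (median log2 change 0.64). Among all tested genes 33.1% were higher and 35.2% lower. With library size alone all 13 were lower. PGM3, of the hexosamine pathway, had the largest rise (1.48, adjusted p = 3.27e-12), and GALK1, which phosphorylates free galactose, the largest fall (-2.61, adjusted p = 2.78e-12 by edgeR). PGM2, a phosphoglucomutase by name and picked after its values were seen, was higher where PGM1 was not called (11.9, 14.5 and 15.7, then 19.5, 21.3 and 25.0 TMM-scaled RPKM, log2 change 0.66, adjusted p = 4.55e-08 by edgeR). Whether PGM2 takes part in making glucose 1-phosphate here was not tested. PGM1 took 37.0, 44.5 and 50.6% of the summed level per length of PGM1, PGM2 and PGM2L1 in late pregnancy and 27.5, 31.1 and 35.8% in lactation. On exon-exon reads PGM1 took 45.2, 57.0 and 61.7%, then 36.8, 39.1 and 48.0%, so that the states overlapped and PGM1 stood above PGM2 in late pregnancy (median share of PGM2 41.9%).

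The 3 lists that follow stand beside 33.1% higher and 35.2% lower over all tested genes. For the other uses of glucose 6-phosphate, 9 of 16 tested genes were higher and 2 lower (median log2 change 0.35). The counts were 8 higher and 4 lower with upper quartile scaling, and 1 higher and 15 lower with library size alone. PGD, of the pentose phosphate pathway, rose most (52.5 to 418 mean TMM-scaled RPKM, log2 change 2.99, adjusted p = 1.12e-15) and PFKFB3, which sets the level of an activator of glycolysis, fell most (12.5 to 2.86, -2.08, adjusted p = 1.36e-09 by edgeR). GYS2, the glycogen synthase of liver, had at most 3 reads in any library. Of 13 carriers of the SLC35 family other than SLC35A2, most known from the Golgi, 9 were higher and 3 lower (median log2 change 0.27). With upper quartile scaling 5 were higher and 3 lower, and with library size alone 1 was higher and 12 lower. SLC35C1, of GDP-fucose, had the largest rise (2.26, adjusted p = 5.09e-14) and SLC35C2 the largest fall (-0.89, adjusted p = 0.000502, both by edgeR). Galactosyltransferases need manganese and leave UDP behind. All 12 tested genes listed for manganese, UDP and UTP handling were higher (median log2 change 0.61). With upper quartile scaling 10 of the 12 were higher and none was lower, and with library size alone 3 were higher and 9 lower. The manganese and zinc carrier SLC39A8 led them (16.2 to 489 mean TMM-scaled RPKM, log2 change 4.92, adjusted p = 4.06e-14 by edgeR), and SLC30A10, an exporter of manganese, had at most 3 reads in any library.

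Whether the feeding of the dams changed these genes was tested in late pregnancy, with 3 pools in each dam group. None of the 13747 genes tested was called by edgeR (0%), with 571 at an unadjusted p under 0.05, and DESeq2's likelihood ratio test called 20, none of the 8 genes among them. PGM1 was the one of the 8 under an unadjusted p of 0.05 (mean 37.6 CPM in LM, 31.3 in HM and 30.5 in MM, adjusted p = 1.00 by edgeR). The interaction of state and dam group was called for none of 13345 genes by edgeR (0%), with 876 at an unadjusted p under 0.05 and none of the 8 among those. Without HM pool 2 of lactation 10 genes were called and without LM pool 2 of lactation 2 were, none of them among the 8, and without LM pool 1 of late pregnancy 1 gene was called for dam feeding. The change of SLC2A1 (GLUT-1) was 2.54 in HM, 2.72 in MM and 2.65 in LM on the log2 scale of mean CPM, that of B4GALT1 2.33, 1.95 and 2.28, that of HK2 1.10, 0.57 and 0.63, and that of PGM1 0.06, 0.04 and -0.34.

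Once the mean of each state was subtracted, the 8 genes varied among the 15 libraries with little in common. Over their 28 pairs Pearson's r of log2 CPM ran from -0.35 to 0.58 with a median of 0.21, as a description, since the libraries also share depth and lane. The highest value joined B4GALT1 and SLC35A2 (0.58), and SLC2A1 (GLUT-1) stood next to UGP2 (0.54) and SLC35A2 (0.52). Among all other tested genes, those most like a member in this measure over the 15 libraries were LOC101115969 (r = 0.94) and LYN (0.91) for B4GALT1, SLC33A1 (0.94) and OTUD3 (0.88) for SLC35A2, IFRD1 (0.88) and RBM18 (0.84) for UGP2, and TMEM120B (0.86) and GNE (0.80) for SLC2A1 (GLUT-1). For the genes of glucose 6-phosphate they were LOC101118245 (0.90) and RALGAPA2 (0.89) for HK1, METTL15 (0.86) and RFC2 (0.85) for HK2, DDX54 (0.90) and NAT10 (0.87) for GPI, and ATP6AP2 (0.80) and ZNF234 (0.78) for PGM1. Each pair was picked as the highest among the 13345 genes tested.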

How the data were processed

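Mammary RNA of 15 pools was prepared with the TruSeq V2 kit, sequenced in paired ends on an Illumina HiSeq and mapped by the authors in CLC Genomics Workbench. The labels name the sheep build Oar 3.1 and the study's methods another release, so coordinates are those of the deposited table. The kit does not mark strand, so reads of a gene and of an antisense partner cannot be told apart. The deposited counts, made by the authors, are raw read numbers for the exons, for the full gene span and for exon-exon borders of a gene, each in all and, for the first pair, also for reads placed at 1 site of the genome. The deposited RPKM divides those reads by exon length and by the total on genes, and a further set of columns holds that RPKM quantile-normalized by the authors over the 15 libraries. The deposited table also holds fold changes and p-values of the authors' own comparison, which were not used.

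Exon counts (whole-gene counts for the 5583 features with no annotated transcript) were filtered with filterByExpr, scaled by TMM and tested with the quasi-likelihood F test of edgeR 4.0.16 in R 4.3.3, over 9 late pregnancy and 6 lactation libraries, with Benjamini-Hochberg adjustment over all genes tested and a threshold of 0.05. Reads outside exons were the difference of whole-gene and exon counts and were tested in the same way. Dam feeding was tested as a factor of 3 levels in late pregnancy, and its interaction with state over all libraries. Ratios of reads, ranks and shares of reads outside exons were compared with exact two-sided permutation tests (Python 3.11.15, scipy 1.17.1). TMM-scaled RPKM is CPM per kilobase of exon. DESeq2 1.42.0 and limma 3.58.1 (on the log2 of quantile-normalized RPKM plus 1 or plus 0.1) served as alternatives. In simulated counts for 13345 genes, 86% of 200 genes changed by 2-fold in the comparison of the states were recovered and 9 unchanged genes were called. That setting holds far fewer changes than these data, where 68.4% of the genes were called, so its figures need not hold for them.

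The 8 genes and all gene lists were chosen with earlier results of these data known. Besides the 8 and LALBA, the genes named are, from each list, the called genes with the largest rise and the largest fall and those with at most 3 reads in every library, the carriers and other hexokinases with a mean of at least 1 TMM-scaled RPKM in either state, and for each of the 8 the 2 tested genes with the highest correlation after subtracting the state means. PGM2 lies outside this rule. Some genes under this rule are not reported here. PFKL, G6PC, NME1, KRT17, OXTR, TEK, HBB, HBA1, MYH1, MYH2, MYH7 and CD163 were not matched to a feature and are not analysed here. Reads carry no molecular identifiers, and the spread between pools is the measure of precision.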

Additional observations from a re-analysis of the deposited data

Results flagged for a closer look

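Of 50 groups of libraries checked for a single library far from the rest, 5 were marked, where chance marks about 1 in 20. HM pool 2 of late pregnancy was the highest of its state in CPM of HK1 (40.0, the next 36.6) and the lowest in the percentile of HK2 (23.6, the next 28.2). LM pool 1 of late pregnancy had the highest share of SLC35A2 reads outside exons (62.8%, the next 58.2%). In lactation HM pool 2 had the highest such share of UGP2 (12.9%, the next 11.1%) and MM pool 2 that of GPI (14.8%, the next 12.5%).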

How the results depend on the processing

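The higher levels of SLC2A1 (GLUT-1) and B4GALT1 kept their direction under every alternative run and their call under every one that gives a test, and those of UGP2, SLC35A2 and HK2 did so under all but library size alone (the luminal reference gives no test). With library size alone, where 2 of the 8 genes were called higher and 6 lower, the log2 change was -0.21 for UGP2, -0.20 for SLC35A2, -1.80 for HK1, -1.16 for HK2, -1.79 for GPI, -1.46 for B4GALT7, -0.43 for PGM3, -1.53 for GLUT8, -0.63 for SLC2A13, -1.46 for LOC101106817, -0.33 for SLC50A1, -0.88 for ADPGK and -1.25 for PGM2, and on reads outside exons -0.43 for PGM1, -0.37 for HK2 and -0.15 for GPI. Of all calls 97.3% were then lower, against 51.6% with TMM and 63.7% with upper quartile scaling. HK1 and GPI were at -0.053 and -0.041 with upper quartile scaling (1 of the 8 called lower), -0.0098 and -0.12 with limma and a pseudocount of 1 (1 called lower), -0.012 and -0.12 with a pseudocount of 0.1, and -0.12 and -0.11 relative to the median of the luminal markers. SLC5A10 was at 0.048 and 0.082 in these limma fits and at 0.15 in lane 8, where HK1 was at -0.052. PGM1 was at 0.11 in lane 7. The difference between the states in the log2 ratio of UGP2 to SLC35A2 was 0.092 on whole-gene reads, that of HK1 to GPI 0.023 on exon-exon reads, and that in the share of HK2 reads outside exons 2.33 percentage points on reads placed at 1 site. The cause of these changes was not tested.

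Leaving out each library in turn gave 8891 to 9049 genes called between the states, 5 to 7 of the 8 genes higher, 24 to 26 ratios and 5 to 7 ranks under the threshold, and 1 to 3 shares of reads outside exons called. The difference between the states in the log2 ratio of UGP2 to SLC35A2 then ran from -0.049 to 0.046, that of HK1 to GPI from -0.061 to 0.036, and the rank difference of HK1 from -1.04 to 1.04. Genes called for dam feeding ran from 0 to 1 and for its interaction with state from 0 to 10, and DESeq2's likelihood ratio test called 20 for dam feeding. Same-numbered pools of a dam group correlated at -0.01, 0.10, 0.12, -0.05, 0.10 and -0.04, and 2 of the 6 correlated best with their own number. Such values cannot show whether these pools share ewes, since each pool mixes several animals and which ones is not given. With a replicate block of dam group and pool number 8464 genes were called between the states, with 5 of the 8 genes higher and none lower, and the calls of GLUT8 (adjusted p = 0.0658) and LOC101106817 (adjusted p = 0.0780) were lost. Exon-exon reads, the luminal reference and reads placed at 1 site for the family shares were added after seeing the data. Depth limited HK2 most, at 59 to 236 exon reads a library.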
